A study of Drosophila melanogaster with 2 samples.

Results

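The Brahma complex genes brm, mor, osa, Snr1, Bap55, Bap60, Bap111 and e(y)3 were examined for binding of Ash1, a trithorax group methyltransferase of histone H3, in Drosophila melanogaster embryos. These 8 genes, of 13945 protein-coding genes on the main chromosome arms, were chosen by name as genes of the complex. All regions with a summit in one of them or within 1000 bp of it were collected, which gave 49 of the 30000 candidate regions called on both replicates together. Chromatin came from whole embryos of both sexes, 0 to 24 h old, of a transgenic line with GFP at the C terminus of Ash1. There was 1 group with 2 biological replicates, numbered 2 and 4, and no untagged strain or second condition was analysed here. The sources used here do not say if GFP was added to the native ash1 locus or to an additional transgene, and in a whole embryo the cell types cannot be told apart.

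The Brahma complex is the fly SWI/SNF nucleosome remodeller, an ATP-driven machine that slides or ejects nucleosomes. Its ATPase brm, together with mor and osa, was found in genetic screens for factors that keep Hox genes active. Screens of this kind defined much of the trithorax group. A common core of Brm, Mor, Snr1, Bap60, Bap55 and Bap111 joins either Osa, in the form called BAP, or Polybromo, Bap170 and the e(y)3 product SAYP, in the form called PBAP.

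Regions were ranked by the signal value the authors deposited, with 1 the strongest, and the 1567 pooled regions that passed the authors' irreproducible discovery rate (IDR) threshold are called peaks. Peaks were the 1567 highest-ranked pooled candidates, down to a signal of 92.5. The scale of the signal is not stated and differs between lists, so ranks were set side by side and signals were compared only within a list. Each list held 30000 candidates, with a modal width of 336 bp for the pooled regions, 400 bp for those of replicate 2 and 270 bp for those of replicate 4. Both replicates were called against 1 shared control alignment, and read depth is unknown.

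Strong Ash1 regions lay at brm and osa, in different places. At brm, the single peak (rank 116) lay in the gap between its transcription start site (TSS) and that of its neighbour Arl1. At osa, 4 peaks (ranks 255, 323, 1164 and 1387) lay in introns and none at the TSS. The other 6 genes had candidates, but no peak. Thus 2 of 8 genes (25%) had a peak within 1000 bp, and 11.7% of protein-coding genes did. At promoters, within 500 bp of a TSS, 1 of 8 (12.5%) had a peak and 7.49% of protein-coding genes did. With 8 genes, 1 gene more or fewer moves either share by 12.5 percentage points.

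The DNA of 3 promoter gaps, of the upstream side of mor and of the osa peaks is printed here because summits described for these genes fall in it, except for the Bap111 gap, which is shown as a start with no pooled summit. Each line is dm6 sequence from RefSeq, read 5′ to 3′ in the direction of the Brahma complex gene's strand. For brm, Bap60 and Bap111 it is the whole stretch between the gene's TSS and that of the neighbour on the other strand. These lines and that of mor end at the base before the gene's own TSS. Each osa line holds 100 bp on either side of a summit. Capitals mark every match, on either strand, to the motifs GAGAG (bound by GAGA factor, the Trl product), GCCAT (core of the site of Pleiohomeotic, a DNA-binding Polycomb group protein), CGATA (core of the site of the insulator protein BEAF-32), TATCGATA (site of DREF, which contains CGATA), GGTCACACT (part of the M1BP motif), TGAGTG (Zeste), CACGTG (E-box) and CATTTGAA (no factor assigned here).
brm to Arl1 gap, chr3L:15982870-15983134, minus strand: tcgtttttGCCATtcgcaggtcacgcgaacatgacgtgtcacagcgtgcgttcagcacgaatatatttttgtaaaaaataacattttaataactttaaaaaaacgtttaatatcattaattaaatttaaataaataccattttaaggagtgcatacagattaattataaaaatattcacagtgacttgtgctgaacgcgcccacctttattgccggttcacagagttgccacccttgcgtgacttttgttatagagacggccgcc
mor upstream side, chr3R:15972914-15973128, minus strand: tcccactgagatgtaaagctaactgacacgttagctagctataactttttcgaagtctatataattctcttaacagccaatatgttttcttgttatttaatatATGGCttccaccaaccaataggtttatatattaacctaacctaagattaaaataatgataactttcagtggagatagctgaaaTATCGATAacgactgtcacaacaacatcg
Bap60 to CG12096 gap, chrX:13159509-13159603, minus strand: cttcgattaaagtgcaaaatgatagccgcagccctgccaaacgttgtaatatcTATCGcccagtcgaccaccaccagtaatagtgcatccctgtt
Bap111 to fh gap, chrX:9149072-9149308, plus strand: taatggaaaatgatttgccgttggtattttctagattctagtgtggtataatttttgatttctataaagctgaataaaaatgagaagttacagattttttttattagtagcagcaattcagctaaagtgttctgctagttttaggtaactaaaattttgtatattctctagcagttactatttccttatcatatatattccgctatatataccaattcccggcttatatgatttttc
osa peak of rank 255, chr3R:17700415-17700615, minus strand: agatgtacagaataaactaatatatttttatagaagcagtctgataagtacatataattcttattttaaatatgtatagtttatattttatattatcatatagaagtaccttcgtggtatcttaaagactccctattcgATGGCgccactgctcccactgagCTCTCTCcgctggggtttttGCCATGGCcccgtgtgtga
osa peak of rank 323, chr3R:17704328-17704528, minus strand: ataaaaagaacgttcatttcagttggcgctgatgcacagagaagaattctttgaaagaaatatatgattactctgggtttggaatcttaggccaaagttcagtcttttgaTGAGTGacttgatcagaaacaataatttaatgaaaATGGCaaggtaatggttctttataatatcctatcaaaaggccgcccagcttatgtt
osa peak of rank 1164, chr3R:17717135-17717335, minus strand: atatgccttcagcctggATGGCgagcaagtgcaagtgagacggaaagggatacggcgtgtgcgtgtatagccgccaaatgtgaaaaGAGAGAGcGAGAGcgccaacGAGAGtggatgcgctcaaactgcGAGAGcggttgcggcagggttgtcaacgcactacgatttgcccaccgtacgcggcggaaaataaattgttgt
osa peak of rank 1387, chr3R:17701276-17701476, minus strand: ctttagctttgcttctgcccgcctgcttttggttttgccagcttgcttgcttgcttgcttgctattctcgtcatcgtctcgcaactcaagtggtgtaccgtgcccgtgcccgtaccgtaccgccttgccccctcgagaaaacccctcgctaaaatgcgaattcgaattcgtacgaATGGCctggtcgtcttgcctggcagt

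The gene brm encodes the ATPase that powers the complex. It lies on 3L, 15970082 to 15982869, on the minus strand, and its peak, 336 bp wide, had its summit at 15982945, 76 bp upstream of the TSS. The same region was the highest-ranked one at brm in each replicate, with signal 141 in replicate 2 (rank 80, the strongest 0.267% of that list, summit 15983010) and signal 116 in replicate 4 (the strongest 0.67% of that list, summit 15982945). The summits of the replicates were 65 bp apart, and in replicate 2 the region was only 134 bp wide, with its summit nearer to the TSS of Arl1 (125 bp) than to that of brm (141 bp). Arl1, which encodes a small GTPase of the ADP-ribosylation factor family, is transcribed away from brm, and 265 bp separate the starts, so the peak cannot be given to either gene from its position. Of 13945 protein-coding genes, 176 (1.26%) had a stronger best region than brm.

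**Figure D1:**
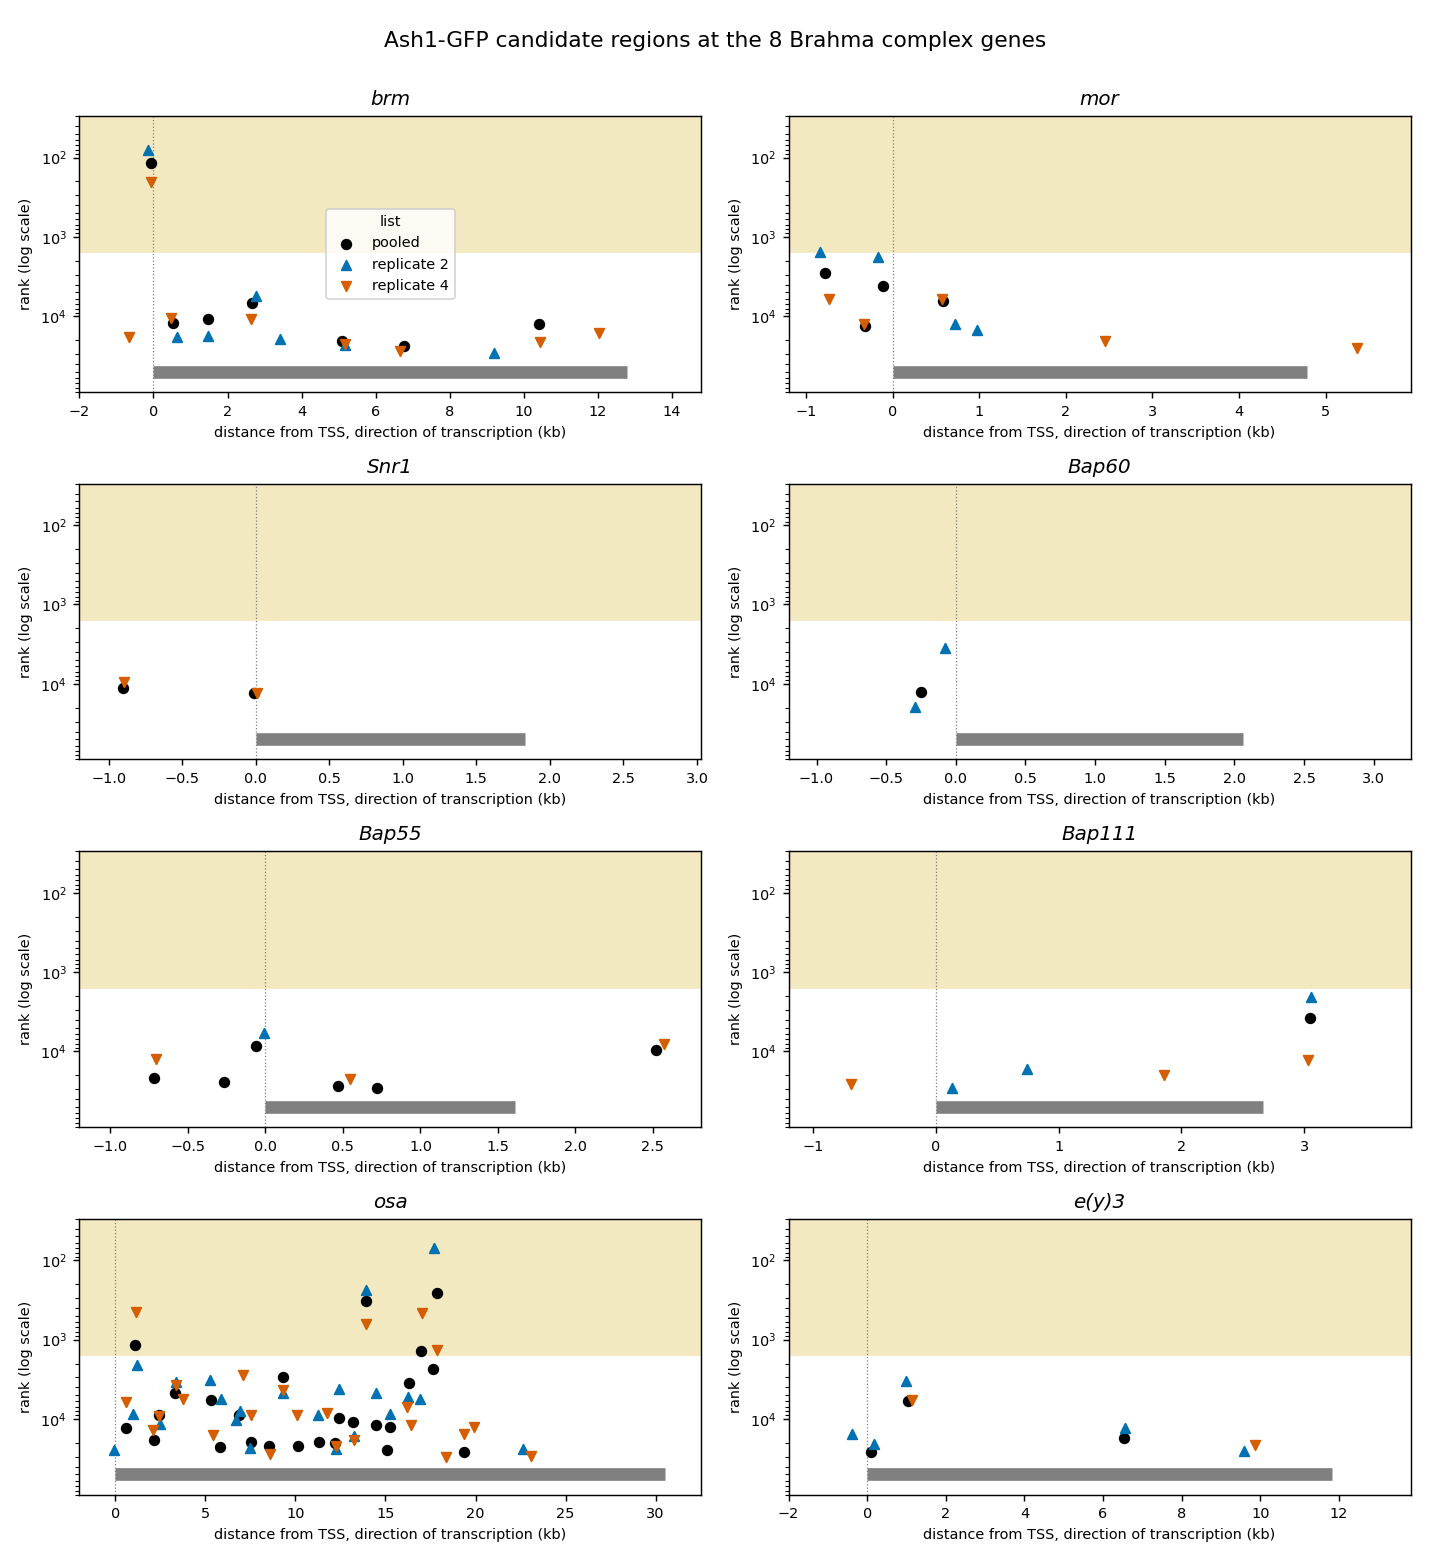
Rank of every candidate region (log scale, strongest at the top) against its distance in kb from the TSS in the direction of transcription, for each of the 8 Brahma complex genes in the pooled list (black circles), replicate 2 (blue triangles) and replicate 4 (orange triangles). Grey bars are gene bodies and the shaded band holds ranks 1 to 1567. Only brm, at its TSS, and osa, in its introns, have pooled regions in the band.

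Inside brm the other 6 pooled candidates ranked between 6823 and 23428, far below the peak. The strongest of them, at 15980186 (rank 6823; nearest regions at rank 5589 in replicate 2, 103 bp away, and rank 10837 in replicate 4), lay 86 bp from the TSS of CG17027, a gene nested in brm. Another lay 533 bp downstream of the nearer of the 2 annotated brm TSSs, in coding sequence (rank 12280, with 18034 in replicate 2 and 10435 in replicate 4). The other TSS, at 15982869, is the one from which the brm peak was measured above. Among 618 protein-coding genes of 10000 to 15000 bp, which is the length class of brm, 22.8% had at least 1 peak, and 15 had a stronger best region.

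The gene osa encodes the ARID-domain subunit that defines the BAP form. It is the longest of the 8 genes, with 30533 bp on 3R (17687818 to 17718350, minus strand), and held 25 of the 49 pooled candidates. Of those, 22 lay in introns, 3 in coding exons and none within 500 bp of its single TSS. The nearest lay 569 bp downstream of the TSS (rank 12903), and replicate 2 alone had a weak one 73 bp upstream of it (rank 24385).

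Of the 4 osa peaks, 3 lay in the same intron of 8067 bp (17699704 to 17707770), which held 12 of the pooled candidates. The peak of rank 255 had its summit at 17700515, and its nearest replicate regions ranked 69 in replicate 2 (132 bp away) and 1340 in replicate 4 (47 bp away). The peak of rank 323 was narrow, 156 bp, with its summit at 17704428, and ranked 236 in replicate 2 and 628 in replicate 4, each with a summit 11 bp away. The peak of rank 1387, at 17701376, ranked 5607 in replicate 2 and 462 in replicate 4. Each of these 3 peaks had a summit within 100 bp among the 1567 strongest of replicate 4, and the peak of rank 323 also had one among the 1567 strongest of replicate 2. The replicate 2 region of rank 69 lay nearer to another pooled candidate, that of rank 2355 at 17700719 (72 bp away), than to the peak of rank 255.

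The remaining osa peak lay near the start of the gene. Its summit, at 17717235, was 1115 bp downstream of the TSS in an intron of 1021 bp, and it ranked 1164 in the pooled list, 2106 in replicate 2 and 453 in replicate 4. Replicates thus differed in which osa region was strongest: the one at 17700647 in replicate 2 (rank 69) and the one at 17717222 in replicate 4 (rank 453).

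The large osa intron also contains antisense noncoding RNA genes, lncRNA:CR46036 (nearest TSS of the regions of ranks 255 and 1387) and lncRNA:CR46035 (nearest TSS of the region of rank 323). The summit of the rank 255 region was 226 bp from the TSS of lncRNA:CR46036, and the rank 1387 summit lay in an exon of it, 635 bp from that TSS. The rank 323 summit lay in an exon of lncRNA:CR46035, 733 bp from its TSS. Position alone therefore does not give these peaks to osa or to the noncoding genes, and only the peak of rank 1164 had osa as the gene with the nearest TSS.

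Long genes hold more regions, so osa was set beside genes of its own length. Among 268 protein-coding genes of 25000 to 35000 bp, the median was 7.5 candidates (0 to 51), and 15 genes including osa had 25 or more. In this class 73 genes (27.2%) had a peak, and 5 genes including osa (1.87%) had 4 or more. Of all protein-coding genes of 10000 bp or more, 27.4% had a peak within 1000 bp, and of the shorter ones 9.07%. The 3 long Brahma complex genes, brm, osa and e(y)3, had a peak in 2 cases, and the 5 short ones in none.

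**Figure D2:**
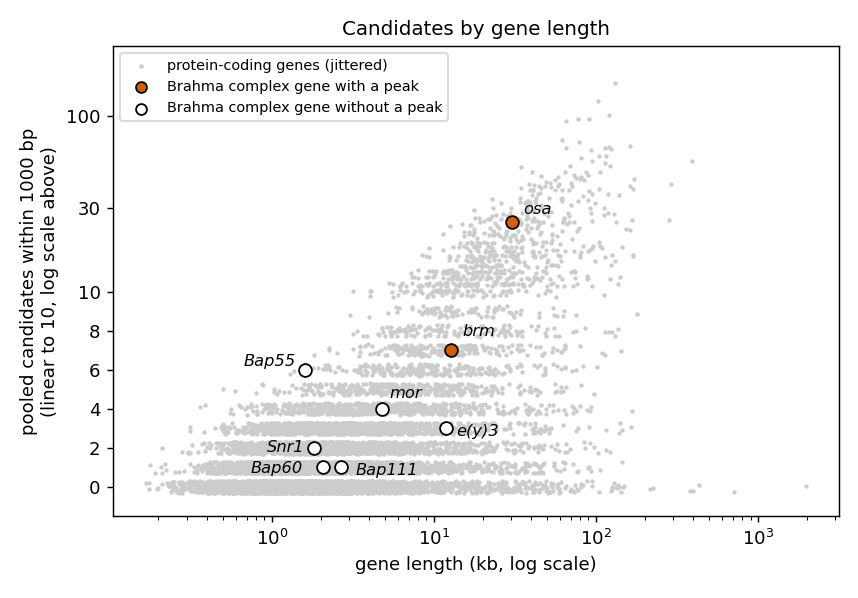
Number of pooled candidates within 1000 bp of a gene (linear up to 10 and on a log scale above) against gene length in kb (log scale) for all protein-coding genes (grey, jittered vertically) and the Brahma complex genes (circles, filled where the gene has a peak). The gene osa, at 25 candidates, and brm, at 7, are the longest of the 8 and the ones with peaks.

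The gene mor encodes the scaffold subunit on which the core is built. It lies on 3R (15968134 to 15972913, minus strand), back to back with Hel89B, which encodes another SNF2-family ATPase, with 384 bp between the starts. Its 4 pooled candidates ranked 2862, 4205, 6393 and 13241, and the first of these had signal 72.1, the highest among the Brahma complex regions outside osa that were not peaks. The summit of rank 2862, at 15973691, was 778 bp upstream of mor and 393 bp inside Hel89B. It ranked 1553 in replicate 2, within the 1567 strongest there, and 5995 in replicate 4. The promoter candidate at 15973028, 115 bp upstream of the mor TSS, ranked 4205 in the pooled list and 1782 in replicate 2 (57 bp away), and replicate 4 had no summit within 100 bp of it. The intron region of rank 6393 went the other way, with rank 6006 in replicate 4 (1 bp away) and no summit within 100 bp in replicate 2.

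Among the small core subunits, Snr1 encodes the SNF5 orthologue and lies on 3R (5470926 to 5472754, plus strand). Its pooled candidates ranked 11247 (904 bp upstream, in the neighbouring gene mRpL44) and 13202 (10 bp upstream of the TSS). Replicate 4 had both, at ranks 9557 and 13093, and replicate 2 had no candidate within 1000 bp of the gene. Bap60, on X (13157445 to 13159508, minus strand), encodes the BAF60 orthologue and showed the converse. Its single pooled candidate, 253 bp upstream of the TSS and inside CG12096, ranked 12748, replicate 2 had regions of ranks 3553 (81 bp upstream, in the printed gap) and 19533, and replicate 4 had none.

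Bap55 encodes an actin-related protein and lies on 2R (17429353 to 17430963, minus strand), with Lhr starting 69 bp away on the other strand. It had 6 pooled candidates, the most for its length among the 8 genes (16.6 per 10 kb, counting 1000 bp on either side). Only 2 of them lay inside Bap55, with 3 upstream and 1 downstream. The 6 candidates ranked from 8645, 58 bp upstream of the TSS and 11 bp from that of Lhr, down to 29227. The region at the TSS ranked 5860 in replicate 2 and had no counterpart within 100 bp in replicate 4. The region downstream of the gene, in Mtap (rank 9605), ranked 8019 in replicate 4 and was not found in replicate 2. Bap111, on X (9149309 to 9151976, plus strand), encodes the HMG-box subunit and had no pooled candidate at its TSS. Its only pooled candidate (rank 3849) lay 380 bp beyond its 3′ end, between Bap111 and His3.3B, and ranked 2080 in replicate 2 and 12858 in replicate 4. Weaker regions without a pooled counterpart lay 129 and 743 bp downstream of the TSS in replicate 2 (ranks 29213 and 16892). In replicate 4 such regions lay 1856 bp downstream (rank 20134) and 696 bp upstream, in fh (rank 26138).

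The gene e(y)3 encodes SAYP, a subunit of the PBAP form, and lies on X (19626548 to 19638369, minus strand). Its strongest region, in 5′ UTR sequence 1034 bp from the TSS, ranked 5869 in the pooled list. It ranked 3329 in replicate 2, with a summit 40 bp away, and 5687 in replicate 4, 110 bp away. The region nearest to the TSS, 83 bp downstream of it, ranked 25906 in the pooled list and 20757 in replicate 2, and had no counterpart in replicate 4. It held 3 pooled candidates and no peak. Among the 618 protein-coding genes of 10000 to 15000 bp the median was 4 candidates, and 22.8% had a peak.

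**Figure D3:**
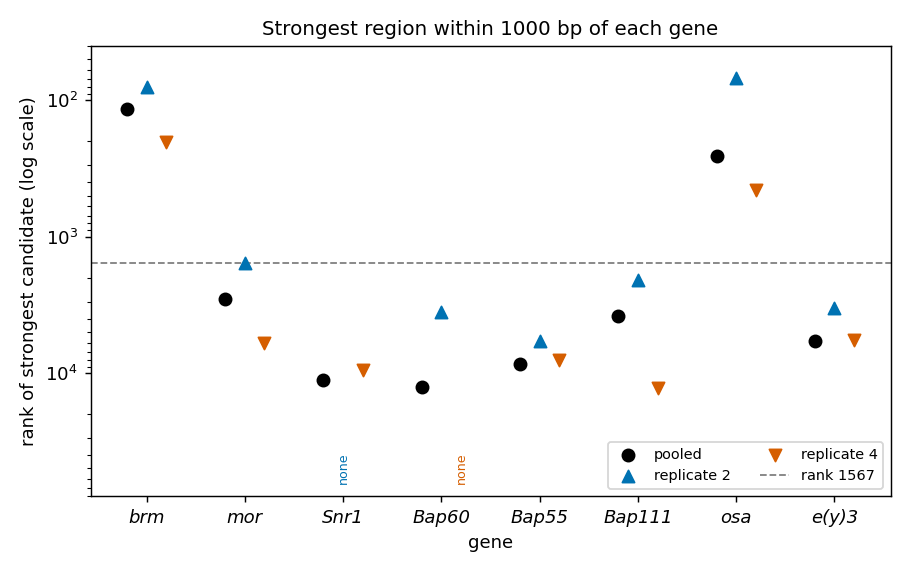
Rank of the strongest candidate within 1000 bp of each Brahma complex gene (log scale, strongest at the top) in the pooled list, replicate 2 and replicate 4, with a dashed line at rank 1567 and "none" where a list has no candidate. In each list brm and osa lie above the line, and mor does so in replicate 2 alone.

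Taking the 8 genes as a list, each had a pooled candidate within 1000 bp, against 62.5% of protein-coding genes, and 6 (75%) had one within 500 bp of a TSS, against 45%. The median best rank was 4859 over the 8 genes and 7093.5 over the 8714 protein-coding genes with a candidate. Of the 49 pooled candidates, 5 (10.2%) were peaks, against 5.22% of all candidates. Of those 5 peaks, 4 lay in osa, and without osa 1 of 24 was a peak. Of the 49, 28 lay in introns, 10 upstream, 7 in coding exons, 2 in 5′ UTRs and 2 downstream.

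A shared feature that the choice of genes did not use was the arrangement of their starts, although this comparison was chosen after seeing the data. In 7 of the 8 genes, osa being the exception, a coding gene on the opposite strand started within 500 bp upstream, which held for 26.4% of protein-coding genes. Distances between the starts were 69 bp (Bap55 and Lhr), 96 bp (Bap60 and CG12096), 238 bp (Bap111 and fh), 266 bp (brm and Arl1), 290 bp (Snr1 and mRpL44), 385 bp (mor and Hel89B) and 398 bp (e(y)3 and Rcd-1). For osa the distance to the start of Pxt was 1104 bp. Among all such head-to-head genes 12% had a promoter peak, and among the 7 here brm alone did (1 of 7).

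How far the replicates shared regions at these genes was asked next. Of the 49 pooled candidates, 16 (32.7%) had a summit within 100 bp in both replicates, against 31% of all pooled candidates. With summits within 50 bp the count was 7 (14.3%), against 16.4% of all pooled candidates. At 100 bp another 14 were matched in replicate 2 only, 16 in replicate 4 only and 3 in neither. Of the 16 shared regions, 11 lay in osa and 3 in brm, and 8 ranked higher in replicate 2 and 8 in replicate 4. Of the 5 peaks 4 were matched in both replicates, the exception being the osa peak of rank 255, and 91.6% of all peaks were.

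Taken by gene, the strongest region of replicate 2 was set beside that of replicate 4, whether or not they lay in the same place. That of replicate 2 ranked higher in each of the 6 genes that had candidates in both (brm, mor, Bap55, Bap111, osa and e(y)3). This was so for 49.5% of the 7393 protein-coding genes with candidates in both. At osa (ranks 69 and 453) and at Bap55 (rank 5860 at the TSS and rank 8019 in Mtap) these were different regions. When the 1567 strongest candidates of a replicate were used in place of the peaks, 3 of 8 genes (brm, osa and mor) counted in replicate 2, where the share over protein-coding genes was 11.1%. In replicate 4, brm and osa counted (11.6% of protein-coding genes). At promoters brm alone counted in either replicate, beside 7.24% and 7.29% of protein-coding genes in replicates 2 and 4.

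**Figure D4:**
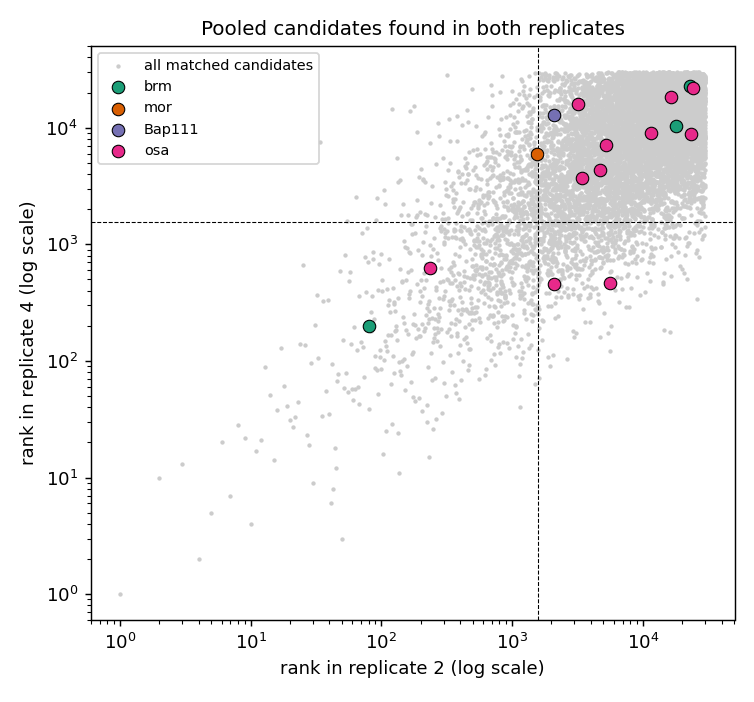
Rank in replicate 4 against rank in replicate 2 (both log scales, strongest at the lower left) of pooled candidates with a summit within 100 bp in both replicates, all 9294 in grey and the 16 at Brahma complex genes in colour. Dashed lines mark rank 1567. One brm region and 1 osa region lie inside the lines in both replicates, 2 osa regions pass the line of replicate 4 alone, and 1 mor region that of replicate 2 alone.

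Motifs were counted in windows reaching 100 bp to either side of a summit, beside their frequency in the windows of all candidates. The motif GCCAT occurred in all 5 peaks at Brahma complex genes, in 22 of their 49 candidates (44.9%), in 38.1% of all candidates and in 33.6% of all peaks. It occurred 3 times at the osa peak of rank 255, where 2 of the matches overlap on opposite strands, and once at each other peak. At brm the match in the window, at 15982868 to 15982872, spans the TSS, so that it is only partly in the printed gap and not in capitals there, whereas the GCCAT in capitals in that gap is farther than 100 bp from the summit. GAGAG occurred at the osa peaks of ranks 1164 (5 matches, which overlap in part) and 255 (2 overlapping matches), in 30.6% of the Brahma complex candidates, in 28.3% of all candidates and in 37.5% of all peaks. The brm window held neither GAGAG nor CGATA nor TATCGATA, whereas the mor promoter candidate held TATCGATA, found in 4.02% of all peaks and 1.48% of all candidates. TATCGATA was in 2 of the 49 Brahma complex candidates (4.08%). CGATA was in 10 of the 49 (20.4%), in 24.7% of all candidates and in 28.8% of all peaks. TGAGTG occurred at the osa peak of rank 323, in 9 of the 49 (18.4%), in 11.8% of all candidates and in 14% of all peaks. GGTCACACT and CATTTGAA were in none of the 49 windows, and CACGTG in 1. A match is a description of letters and not a binding site.

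Base composition split the peaks. The brm peak and the osa peaks of ranks 255 and 323 had 37.8%, 35.8% and 34.8% GC in these windows, and the osa peaks of ranks 1164 and 1387 both had 54.7%. The median was 48.8% over the 49 candidates, 46.3% over all candidates and 43.8% over all peaks.

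The pattern of brm was compared with that of 4515 protein-coding genes with promoter candidates in all 3 lists, by the Euclidean distance between log10 ranks. Arl1 had distance 0 because it shares the region. Next were CIA30 and CG7601, both at 0.0596. They likewise share a single region with each other (rank 107 in the pooled list, 83 in replicate 2 and 181 in replicate 4).

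Other remodeller genes were counted in the same way. Of 5 further SWI/SNF genes, Act5C (an actin gene, best rank 875, 52 bp from a TSS) and Brd7-9 (a bromodomain subunit, rank 1410, 288 bp) had a peak, and tth (rank 1991), polybromo (rank 28228) and Bap170 (no pooled candidate) did not. Of 21 genes of other remodellers, 4 had a peak: Mi-2, the ATPase of the NuRD complex (rank 318, 6919 bp from a TSS), kis, a CHD-family ATPase (rank 791), Ino80, the ATPase of the INO80 complex (rank 793), and pont, an AAA+ ATPase of the INO80 and Tip60 complexes (rank 1453). Together 6 of 26 genes (23.1%) had a peak within 1000 bp, beside 2 of 8 Brahma complex genes and 11.7% of protein-coding genes. By length, 3 of 7 genes of 10000 bp or more and 3 of 19 shorter ones had a peak. The shares over protein-coding genes of these lengths were 27.4% and 9.07%. Mi-2, which is 28165 bp long, had 3 peaks and, as in osa, its strongest lay far from the TSS.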

How the data were processed

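The deposited data were 4 peak lists in dm6 coordinates. Per the labels, they came from ChIP-seq of sonicated chromatin (fragments of 200 to 800 bp). Free text in the labels names the samples input controls, whereas the antibody (ash1) and the peak calls describe immunoprecipitated material, and they were treated as such. Per the notes deposited with the files, the authors derived a candidate list from each replicate and from both pooled, with 1 control alignment, and the peaks from these lists. The sources used here give no aligner, peak caller, IDR threshold or read depth. The signal deposited by the authors is the caller's enrichment measure on an unstated scale and was used for ranks. The authors' deposited −log10 q-value reached its ceiling in 3537 pooled candidates and was not used. The lists hold no read counts, so no interval is given.

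Genes and TSSs came from Ensembl release 115 and sequence from RefSeq's copy of the same assembly; the coordinates of all listed genes were equal in both. The symbol CG7154 was matched to Brd7-9 as a synonym. Transposable elements were left out, and 1 promoter sequence is not reported here. A summit was the start plus the offset, 1-based. A gene counted when a summit lay in it or within 1000 bp, a promoter within 500 bp of a TSS, and summits within 100 bp of each other as the same region. Motifs were sought on both strands within 100 bp of the summit. No test was run: there was 1 group, and genes and regions are not replicates. Named are the 8 genes, the list genes with a peak or, for the 5 further SWI/SNF genes, all of them, the genes nearest to the regions described, and the 3 genes most like brm; the further SWI/SNF genes without a peak were named after their values were seen. Length classes and the head-to-head comparison were chosen after seeing the data. The genes and lists were chosen with earlier results of these data known. Assignments were checked on simulated regions. Python 3.11.15, numpy 2.4.6 and pandas 2.3.3 were used.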

Additional observations from a re-analysis of the deposited data

How the results depend on the processing

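Of 28 alternative values, 25 stayed within 1.5 times the value reported, with values exactly at that limit counted as within it. The number of Brahma complex genes with a peak was 2, and 1 (osa) when the summit had to lie inside the gene, because the brm peak is 76 bp outside it. It was 3 with a distance of 2000 bp, which added Bap55 (a peak of rank 1004, 1847 bp away), and 2 to 3 with each replicate alone (mor joins in replicate 2). The promoter count was 1 under every alternative tried (250 and 1000 bp, the 1000 or 500 strongest candidates, either replicate alone). Candidates matched in both replicates fell to 7 with summits within 50 bp, against 16 at 100 bp and 24 at 250 bp. Other remodeller genes with a peak numbered 6. The number was 4 when the summit had to lie inside the gene or when only the 1000 strongest candidates counted. With the 500 strongest it was 1, and either replicate alone gave 5 to 7. With 8 genes, 2 replicates and 1 shared control, these counts are coarse. No paired analysis was possible because there is a single group and no test.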

Other observations

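Some regions counted at the Brahma complex genes also counted for genes inside or beside them. CG17027, which lies within brm, had a pooled candidate 86 bp from its TSS (rank 6823), and replicate 2 had one 17 bp from it (rank 5589). Hel89B, which shares its upstream region with mor, had a best rank of 2862 in the pooled list, 1553 in replicate 2 and 2282 in replicate 4, with 9 pooled candidates. Act5C had 2 peaks among 7 pooled candidates, kis 2 among 25 and Mi-2 3 among 27, whereas tou, which is 38561 bp long, had 41 candidates and no peak, its strongest ranking 1600. These genes without a peak were named after their values were seen. The genes dom, Acf, Chd3 and Chrac-14 had no pooled candidate within 1000 bp.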
